A study of Mus musculus with 3 samples.

Results

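The genes described are 10 innate immune sensors and adaptors, chosen by symbol from the 25791 symbols of an RNA sequencing table. They are the RNA sensor genes Ddx58 (RIG-I), Ifih1 (MDA5) and Dhx58 (LGP2), their adaptor Mavs, the DNA sensing adaptor Tmem173 (STING), the sensor Zbp1, the Toll-like receptor genes Tlr2, Tlr3 and Tlr4, and the adaptor Myd88. All 10 were in the table. They were read across the mouse melanoma cell lines YUMM2.1, YUMM1.7 and YUMM1.1, each measured as 1 library of total RNA in a series on PD-1 blockade in transplanted melanoma. YUMM lines come from melanomas of genetically engineered mice, and each stands for the tumor it was grown from. The labels give no genotype, treatment, culture condition or tumor response for any of the 3 lines. With 1 library per line there is no replicate check, and no difference below carries a p-value or can be set against a spread between cultures.

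Cells detect foreign or misplaced nucleic acid with sensors in the cytosol and with receptors at the surface and in endosomes. RIG-I and MDA5 bind viral RNA in the cytosol and signal through MAVS on mitochondria, whereas DNA in the cytosol activates cGAS, whose product cyclic GMP-AMP is bound by STING. Both routes lead through the kinase TBK1 to IRF3 and to type I interferon. Toll-like receptors signal through MYD88, except TLR3, which uses TRIF, while TLR4 uses both adaptors. Several of the sensors, among them RIG-I, MDA5, LGP2 and ZBP1, are themselves encoded by genes that interferon induces. In melanoma, loss of STING signaling has been described, and agonists of STING, RIG-I and Toll-like receptors have been tried as treatments that make tumors visible to T cells.

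Levels are given as FPKM, a unit that corrects fragments for the length of the transcript and for the library, so that genes can be compared with each other. The spacing of the lowest values gave the FPKM of 1 fragment. Its inverse was about 87.3 M in YUMM2.1, 46.2 M in YUMM1.7 and 69.0 M in YUMM1.1. The scaling of the libraries is not named, so these figures need not be the numbers of fragments sequenced. From this spacing each level was given a 95% Poisson interval, which covers counting error only. Differences between lines are on the log2(FPKM + 1) scale, and a difference of 1 (2-fold on that scale) was used to count a gene as higher or lower. The comparison set is the 11741 symbols with at least 1 FPKM in at least 1 line. All 10 genes passed that filter, but 5 passed through a single line (Ifih1, Dhx58 and Zbp1 through YUMM1.7, Tlr2 and Tlr3 through YUMM2.1), so these had to read highest there.

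The cytosolic RNA sensors read highest in YUMM1.7. Ddx58, whose product RIG-I recognizes RNA with a 5' triphosphate end, stood at 1.23 FPKM in YUMM2.1, 7.08 in YUMM1.7 and 2.12 in YUMM1.1. Its intervals for counting error (1.11 to 1.35 FPKM for YUMM2.1, 6.70 to 7.48 for YUMM1.7 and 1.95 to 2.30 for YUMM1.1) did not overlap in any pair of lines. The share of all expressed symbols for which this holds was not counted. Ddx58 ranked above 10.9% of all expressed symbols in YUMM2.1, above 49.5% in YUMM1.7 and above 21.9% in YUMM1.1. Ifih1, whose product MDA5 binds long double-stranded RNA, stood at 0.504 FPKM in YUMM2.1, 1.47 in YUMM1.7 and 0.0866 in YUMM1.1. As deposited, it was the one RNA helicase that separated all 3 lines by more than 2-fold in FPKM, at a ratio of 5.82 for YUMM2.1 over YUMM1.1 and 16.9 for YUMM1.7 over YUMM1.1. With a common FPKM sum its log2 difference of -0.71 for YUMM2.1 against YUMM1.7 became -0.07, where the median of all expressed symbols was 1.12. Dhx58 encodes LGP2, a relative of RIG-I and MDA5 that lacks their signaling domains and modulates both. It stood at 0.242 FPKM in YUMM2.1, 4.97 in YUMM1.7 and 0.284 in YUMM1.1, so that YUMM1.7 was high and the other lines were low with overlapping intervals (0.180 to 0.318 FPKM for YUMM2.1 and 0.208 to 0.376 for YUMM1.1). In bulk RNA fewer cells of a type cannot be told apart from less RNA per cell. The fibroblast marker Col1a2 (0.651 FPKM in YUMM2.1, 127 in YUMM1.7 and 0.0367 in YUMM1.1) was also highest in YUMM1.7. So were Pdgfra, Pdgfrb, Col1a1 and Dcn, while Lum and Thy1 did not reach 1 FPKM in any line. Acta2 (326 FPKM in YUMM2.1 and 149.6 in YUMM1.7) and the sum of the 8 markers (330 and 307 FPKM) were highest in YUMM2.1. The part of such cells in these levels was not tested.

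The order of the 3 helicase genes also differed between lines. In YUMM1.7 the level of Dhx58 was above that of Ifih1, while in YUMM2.1 Ifih1 (0.504 FPKM) read above Dhx58 (0.242 FPKM). Ddx58 was the most abundant of the 3 in every line. Mavs, the adaptor that both signaling helicases share, varied least of this branch, at 7.32 FPKM in YUMM2.1, 10.1 in YUMM1.7 and 9.29 in YUMM1.1. Its highest level was 1.38 times its lowest, and the intervals of YUMM1.7 (9.57 to 10.6) and YUMM1.1 (8.88 to 9.71) overlapped. The order of its levels depends on the scaling, since with a common FPKM sum its difference of 0.11 for YUMM1.7 against YUMM1.1 became -0.62 and that of -0.41 for YUMM2.1 against YUMM1.7 became 0.84. Under that scaling the medians of all expressed symbols were -0.62 and 1.12 in these pairs. Mavs was also the most abundant of the 10 genes in YUMM2.1 and YUMM1.1, while in YUMM1.7 it came after Myd88.

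Tmem173 had a pattern of its own, with 2 lines high and 1 low. It stood at 5.90 FPKM in YUMM2.1, 6.93 in YUMM1.7 and 0.432 in YUMM1.1. Its level in YUMM1.1 corresponded to about 68.4 fragments on a 2299 nt transcript, with an interval of 0.333 to 0.544 FPKM. YUMM2.1 was 13.7-fold and YUMM1.7 was 16.1-fold above YUMM1.1 in FPKM, and the log2 differences were 2.27 and 2.47. It was the single gene of the 10 that was at least 2-fold higher in YUMM2.1 relative to YUMM1.1 on the FPKM + 1 scale, a call made for 6.21% of all expressed symbols. Between YUMM2.1 and YUMM1.7 the difference was -0.20, and it turned to 1.01 when the lines were rescaled to a common FPKM sum, where the median of all expressed symbols was 1.12. The gene of the enzyme upstream of STING, cGAS, named after its values were seen, is listed under its older symbol E330016A19Rik. It too was lowest in YUMM1.1, at 4.54 FPKM in YUMM2.1, 3.0 in YUMM1.7 and 1.17 in YUMM1.1.

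Zbp1 encodes a sensor of Z-form nucleic acid that can trigger necroptosis through RIPK3 and MLKL. It stood at 0.0563 FPKM in YUMM2.1, 2.84 in YUMM1.7 and 0.0813 in YUMM1.1. Its range of 50.3-fold between YUMM1.7 and YUMM2.1 was the widest of the 10 genes. The low levels corresponded to about 9.79 fragments in YUMM2.1 and 11.1 in YUMM1.1, and their intervals (0.0276 to 0.106 FPKM for YUMM2.1 and 0.0400 to 0.143 for YUMM1.1) overlapped. Its partners in cell death did not all follow its order of lines. Ripk3, the kinase, stood at 0.295 FPKM in YUMM2.1, 0.0856 in YUMM1.7 and 0.0251 in YUMM1.1, so the line with the most Zbp1 was below 0.1 FPKM for Ripk3. Mlkl, the executioner, stood at 12.7 FPKM in YUMM2.1, 25.9 in YUMM1.7 and 17.1 in YUMM1.1, and Ripk1, Casp8, Fadd and Cflar were above 2 FPKM in every line. Of the 5 expressed genes of this list, 0 were past a difference of 1 in any pair of lines. Of all expressed symbols, 6.21% to 19.5% were past it, by pair and direction, so a count of 0 among 5 genes says little.

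**Figure D1:**
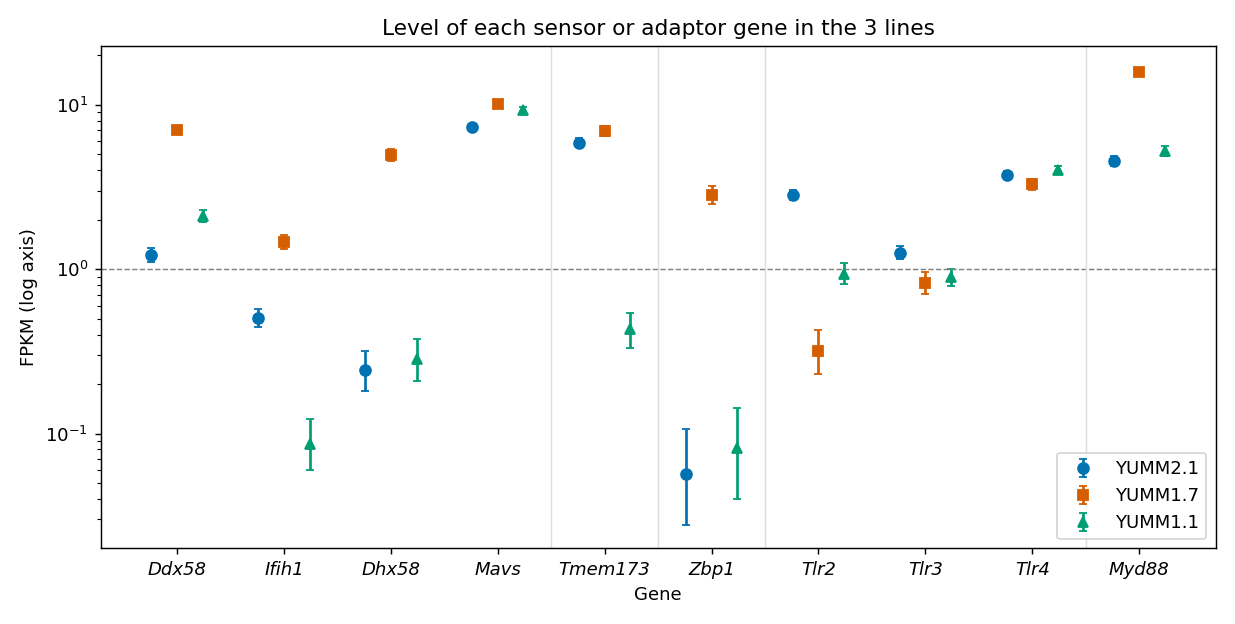
FPKM of the 10 genes on a log axis in YUMM2.1 (circles), YUMM1.7 (squares) and YUMM1.1 (triangles), with 95% Poisson intervals for counting error as bars and a dashed line at 1 FPKM. Ddx58, Ifih1, Dhx58, Zbp1 and Myd88 lie highest in YUMM1.7, Tmem173 is low in YUMM1.1, and Mavs, Tlr3 and Tlr4 lie close together in all 3 lines.

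The surface receptor gene Tlr2 was lowest in YUMM1.7, the line where the RNA sensors read highest. Tlr2, whose product binds bacterial lipopeptides as a dimer with TLR1 or TLR6, stood at 2.82 FPKM in YUMM2.1, 0.318 in YUMM1.7 and 0.941 in YUMM1.1. YUMM2.1 was 8.86-fold above YUMM1.7 and 3.0-fold above YUMM1.1 in FPKM. No intervals for counting error overlapped, though the share of all expressed symbols for which this holds was not counted. The log2 difference was 1.54 from YUMM1.7 and 0.98 from YUMM1.1, just short of the call, and it was 1.11 after the lines were rescaled to a common upper quartile. Leukocyte markers also summed highest in YUMM2.1 (30.5 FPKM in YUMM2.1, 0.919 in YUMM1.7 and 5.60 in YUMM1.1). Most of the sum in YUMM2.1 came from Lyz2 (25.9 FPKM) and Cd68 (4.27 FPKM). Ptprc, the pan-leukocyte gene, stood at 0.00217 FPKM there, and Adgre1, Itgam, Spi1, Tyrobp, Cd3e and Cd79a were listed at 0. The part of such cells in the level of Tlr2 was not tested. The genes of its dimer partners were highest in the same line. Tlr1 stood at 1.28 FPKM in YUMM2.1, with YUMM1.7 listed at 0 and YUMM1.1 at 0.0118 FPKM. Tlr6, named after its values were seen, stood at 0.902 FPKM in YUMM2.1, 0.0344 in YUMM1.7 and 0.0582 in YUMM1.1. Of the other 9 receptor genes of the family and the relative Cd180, Tlr1 was the single one with 1 FPKM in any line, and Tlr8, Tlr9, Tlr11 and Tlr12 were listed at 0 in all 3.

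Tlr3 and Tlr4 differed little between lines as deposited. With a common FPKM sum YUMM2.1 was above YUMM1.7 by 1.04 for Tlr3 and 1.25 for Tlr4 on the log2 scale, close to the median of 1.12 for all expressed symbols under that scaling. Tlr3, an endosomal receptor for double-stranded RNA, stood at 1.26 FPKM in YUMM2.1, 0.825 in YUMM1.7 and 0.893 in YUMM1.1, with overlapping intervals in YUMM1.7 (0.705 to 0.960) and YUMM1.1 (0.789 to 1.0). Tlr4, the receptor for bacterial lipopolysaccharide, stood at 3.76 FPKM in YUMM2.1, 3.28 in YUMM1.7 and 4.0 in YUMM1.1, a range of 1.22-fold, and was the most abundant of the Toll-like receptor genes in every line. Its co-receptor gene Ly96 (MD-2) was also level, at 8.5 FPKM in YUMM2.1, 8.32 in YUMM1.7 and 7.19 in YUMM1.1. Cd14, which encodes the protein that hands lipopolysaccharide to this receptor, was not. It reached 6.21 FPKM in YUMM1.7, while YUMM2.1 held 0.00843 FPKM and YUMM1.1 was listed at 0.

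Myd88, the adaptor of TLR2 and TLR4, stood at 4.53 FPKM in YUMM2.1, 15.7 in YUMM1.7 and 5.23 in YUMM1.1. YUMM1.7 was high and the other lines lay close together, with intervals of 4.22 to 4.86 FPKM in YUMM2.1 and 4.85 to 5.63 in YUMM1.1. It was the most abundant of the 10 genes in YUMM1.7, above 67.1% of expressed symbols there. The log2 difference was -1.60 for YUMM2.1 against YUMM1.7 and 1.43 for YUMM1.7 against YUMM1.1. Rescaled to a common FPKM sum, these became -0.36 and 0.69, where the medians of all symbols were 1.12 and -0.62.

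Read as pairs of lines, YUMM1.7 against YUMM1.1 held most of the differences. There 6 of the 10 genes (Ddx58, Ifih1, Dhx58, Tmem173, Zbp1 and Myd88) were at least 2-fold higher in YUMM1.7, a call made for 13.5% of all expressed symbols. Ifih1, Dhx58 and Zbp1 had passed the filter through YUMM1.7 alone, so this count is a description. In the other direction 0 of 10 were lower, against 9.91% of all symbols. The median difference of the 10 was 1.28, against 0.02 for all expressed symbols. At a difference of 2 (4-fold), Dhx58 (2.22) and Tmem173 (2.47) were past the call, against 3.95% of all symbols, and 0 were lower, against 3.06%. Some of this depends on the scaling, since a common FPKM sum moved the median of all symbols by -0.63. Under it Dhx58 (1.68), Tmem173 (1.88) and Zbp1 (1.38) were still past the call, as 5.84% of all symbols were, while Ddx58 (0.71), Ifih1 (0.83) and Myd88 (0.69) were higher but short of it.

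In YUMM2.1 against YUMM1.7, 4 of the 10 were at least 2-fold lower in YUMM2.1 (Ddx58 -1.86, Dhx58 -2.26, Zbp1 -1.86 and Myd88 -1.60), where 19.5% of all expressed symbols were, and 1 was higher (Tlr2), where 11.7% were. At 4-fold, Dhx58 was the 1 lower gene, against 5.54% of all symbols, and 0 were higher, against 3.13%. The median of the 10 was -0.56, against -0.02 for all symbols. With a common FPKM sum, which moved the median of all symbols by 1.13, 2 of the 10 were lower (Dhx58 -1.58 and Zbp1 -1.37), where 4.48% of all symbols were. The 4 higher ones (Tmem173, Tlr2, Tlr3 and Tlr4) stood against 54.7% of all symbols higher under that scaling. YUMM2.1 against YUMM1.1 was the pair with the fewest calls. Beside Tmem173, 0 of 10 were lower, where 7.64% of all symbols were. Tmem173 also passed the 4-fold call there, as 1.47% of all symbols did, while 0 of 10 were lower by that much, against 1.11%. The medians were -0.04 for the 10 and -0.05 for all symbols. The 3 comparisons share libraries, so they are not independent of each other. By order alone, YUMM1.7 was the highest line for 7 of the 10, as it was for 40.1% of all expressed symbols. Of the 7, Ifih1, Dhx58 and Zbp1 had to be highest there by the filter. With a common FPKM sum Mavs (0.84) and Tmem173 (1.01) read higher in YUMM2.1 than in YUMM1.7, where the median of all symbols was 1.12.

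**Figure D2:**
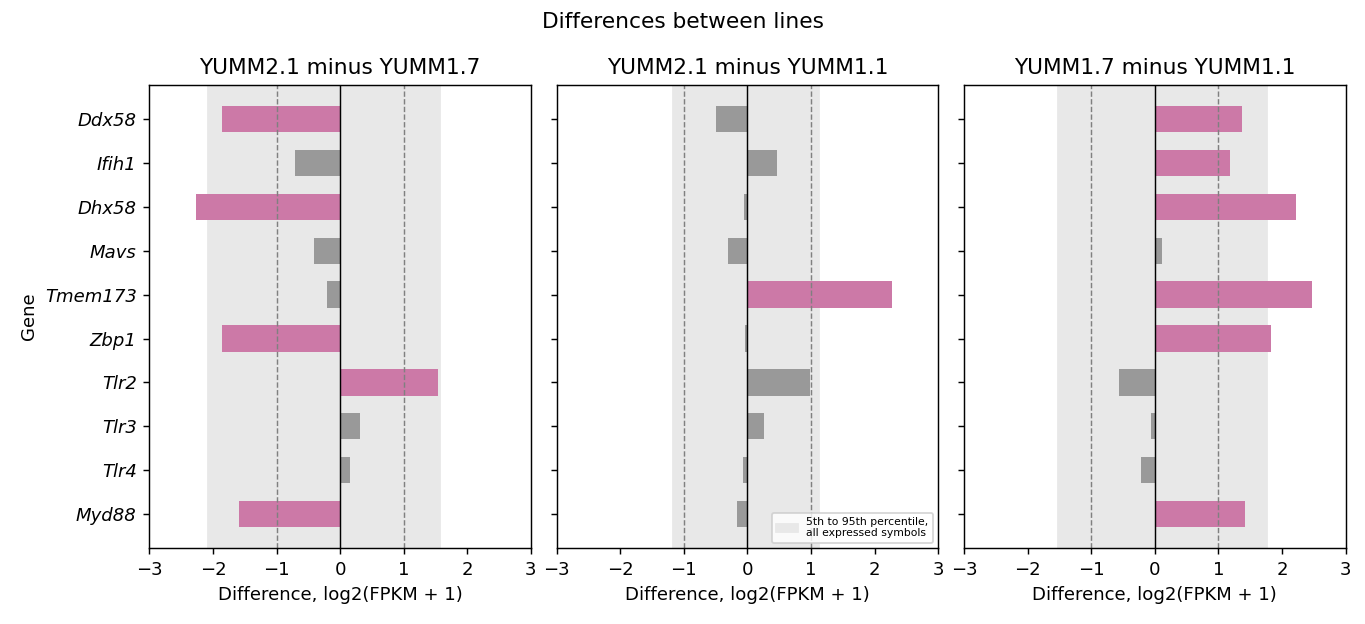
Difference in log2(FPKM + 1) of each gene for YUMM2.1 minus YUMM1.7, YUMM2.1 minus YUMM1.1 and YUMM1.7 minus YUMM1.1, with pink bars at a difference of 1 or more, dashed lines at that call and a grey band from the 5th to the 95th percentile of all 11741 expressed symbols. In the right panel 6 bars pass the call and Dhx58, Tmem173 and Zbp1 pass the band, while in the middle panel Tmem173 alone passes the call.

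**Figure D3:**
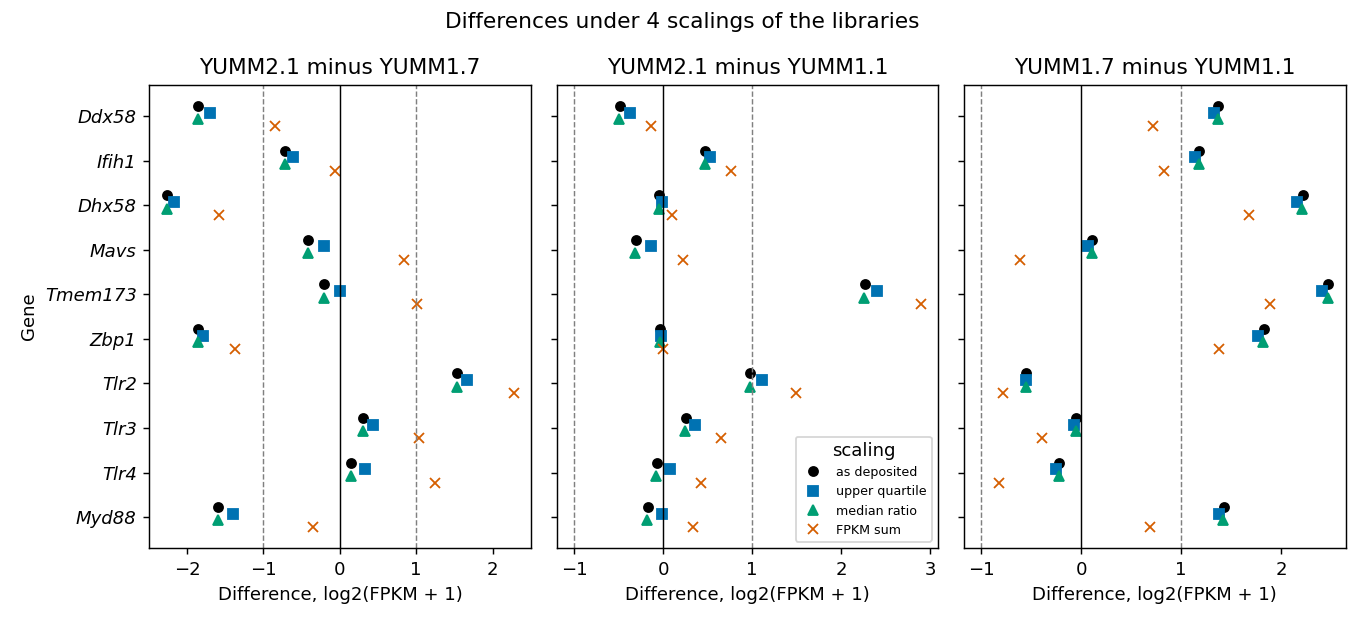
The same differences with values as deposited (circles), rescaled to a common upper quartile (squares), by the median ratio (triangles) and to a common FPKM sum (crosses). The crosses lie right of the circles in both YUMM2.1 panels and left of them in the YUMM1.7 minus YUMM1.1 panel, and no difference of 1 or more changes sign. The triangles lie close to the circles, since the median ratio hardly moved the values.

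Markers of other cell types moved with some of these genes. Of 11 leukocyte markers, 2 reached 1 FPKM in YUMM2.1, 0 in YUMM1.7 and 1 in YUMM1.1. Lyz2 (25.9 FPKM in YUMM2.1, 0.0480 in YUMM1.7 and 4.96 in YUMM1.1) and Cd68 (4.27 FPKM in YUMM2.1, 0.687 in YUMM1.7 and 0.362 in YUMM1.1) made up most of their sum, and YUMM2.1 was highest for both, as it was for Tlr2. Fcer1g (0.309 FPKM in YUMM2.1, 0.179 in YUMM1.7 and 0.122 in YUMM1.1) and Csf1r (0.0953 FPKM in YUMM2.1, 0.00561 in YUMM1.7 and 0.0494 in YUMM1.1) were also highest in YUMM2.1, at lower levels. Ptprc, the pan-leukocyte gene, stood at 0.00217 FPKM in YUMM2.1 and was listed at 0 in both other lines. The remaining 6 (Adgre1, Itgam, Spi1, Tyrobp, Cd3e and Cd79a) were listed at 0 in YUMM2.1 and YUMM1.7 and were below 0.1 FPKM in YUMM1.1. Of 8 fibroblast markers, 3 reached 1 FPKM in YUMM2.1, 6 in YUMM1.7 and 1 in YUMM1.1, with sums of 330 FPKM in YUMM2.1, 307 in YUMM1.7 and 2.72 in YUMM1.1. Pdgfra stood at 0.170 FPKM in YUMM2.1, 13.9 in YUMM1.7 and 0.202 in YUMM1.1, and Pdgfrb stood at 1.88 FPKM in YUMM2.1, 13.0 in YUMM1.7 and 0.0107 in YUMM1.1. Dcn stood at 0.0324 FPKM in YUMM2.1, 1.40 in YUMM1.7 and 0.0175 in YUMM1.1, and Col1a1 stood at 1.17 FPKM in YUMM2.1, 1.79 in YUMM1.7 and 0.455 in YUMM1.1. With Col1a2, these were highest in YUMM1.7, as Ddx58, Ifih1, Dhx58, Zbp1 and Myd88 were, while Lum and Thy1 were below 0.1 FPKM in every line and Acta2 was highest in YUMM2.1 (326 FPKM in YUMM2.1, 149.6 in YUMM1.7 and 2.0 in YUMM1.1). Of 8 melanocyte markers, 3 reached 1 FPKM in YUMM2.1, 0 in YUMM1.7 and 1 in YUMM1.1, with sums of 52.1 FPKM in YUMM2.1, 1.01 in YUMM1.7 and 108 in YUMM1.1. Sox10, a transcription factor of the lineage, stood at 44.3 FPKM in YUMM2.1, 0.00821 in YUMM1.7 and 107 in YUMM1.1, most of the sum where it was high. Mlana, a melanosome gene, stood at 6.18 FPKM in YUMM2.1 and 0.159 FPKM in YUMM1.1, with YUMM1.7 listed at 0. Mitf, the master factor of melanocytes, stood at 1.23 FPKM in YUMM2.1, 0.617 in YUMM1.7 and 0.188 in YUMM1.1. Levels of the pigment genes Dct, Tyr, Tyrp1 and Pmel and the receptor gene Ednrb were below 0.4 FPKM in all 3 lines, so that apart from Sox10 no marker of the list reached 1 FPKM in YUMM1.1 either. The part of such cells or states in the sensor differences was not tested.

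Promoter sequence was looked at because several of these genes differed together. RefSeq promoter windows (GRCm38.p6), from 250 bases before to 50 bases after the transcription start, matched 6 of the 10 genes: Ddx58, Ifih1, Mavs, Tlr2, Tlr3 and Myd88. The core of the interferon-stimulated response element, the site that interferon-activated factors bind, was searched as GAAA, any 2 bases and GAAA again, on both strands. It was present in 3 of these 6 windows (Ddx58, Ifih1 and Myd88) and in 3.44% of all 32851 windows. Those are the 3 genes with a window that passed the 2-fold call in YUMM1.7 against YUMM1.1, a call known before the search. Dhx58, Tmem173 and Zbp1 also passed that call but had no window. The part of the element in these levels was not tested. The kappa-B consensus, the site of NF-kappa-B, was present in the windows of Tlr2 and Tlr3 and in 4.51% of all windows, and the Mavs window held neither. A match describes these letters and does not show that a factor binds there. The windows of the 3 genes with the response element core and of Tlr2 are shown 5' to 3' on the gene's strand, with matches in capitals.
Ddx58: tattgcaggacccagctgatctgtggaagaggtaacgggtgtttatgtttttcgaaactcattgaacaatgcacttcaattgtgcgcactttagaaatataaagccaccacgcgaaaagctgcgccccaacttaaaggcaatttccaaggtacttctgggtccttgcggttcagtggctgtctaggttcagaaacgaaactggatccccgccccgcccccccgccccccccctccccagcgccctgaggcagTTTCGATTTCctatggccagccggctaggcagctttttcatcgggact
Ifih1: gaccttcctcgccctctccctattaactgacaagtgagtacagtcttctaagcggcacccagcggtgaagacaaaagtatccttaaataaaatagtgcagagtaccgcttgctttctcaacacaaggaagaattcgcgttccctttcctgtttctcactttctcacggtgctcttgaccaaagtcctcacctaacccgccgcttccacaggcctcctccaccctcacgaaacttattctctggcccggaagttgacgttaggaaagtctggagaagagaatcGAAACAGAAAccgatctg
Myd88: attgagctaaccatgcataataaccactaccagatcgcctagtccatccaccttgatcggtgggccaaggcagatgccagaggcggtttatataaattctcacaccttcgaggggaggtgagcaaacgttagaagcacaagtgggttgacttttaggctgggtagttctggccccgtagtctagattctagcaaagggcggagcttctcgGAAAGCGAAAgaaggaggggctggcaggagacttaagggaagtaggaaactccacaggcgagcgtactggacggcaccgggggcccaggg
Tlr2: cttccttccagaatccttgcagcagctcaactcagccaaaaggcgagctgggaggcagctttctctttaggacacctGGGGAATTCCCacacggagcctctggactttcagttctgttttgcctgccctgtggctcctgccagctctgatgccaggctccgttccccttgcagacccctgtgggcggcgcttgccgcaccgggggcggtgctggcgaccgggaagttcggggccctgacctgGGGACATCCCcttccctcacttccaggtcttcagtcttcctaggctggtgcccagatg
The Ddx58 window is chr4:40239776-40240075 on the minus strand, and its match lies at bases 253 to 262 of the window, read on the opposite strand, just past the transcription start. The Ifih1 window is chr2:62646206-62646505 on the minus strand, with the match at bases 283 to 292, also in the transcribed part. The Myd88 window is chr9:119339969-119340268 on the minus strand, with the match at bases 211 to 220, upstream of the start. The Tlr2 window is chr3:83841559-83841858 on the minus strand and holds overlapping kappa-B matches within bases 78 to 88 and another at 243 to 252, across the start. In the data these windows belong to genes at 7.08, 1.47 and 15.7 FPKM in YUMM1.7 for Ddx58, Ifih1 and Myd88, and to Tlr2, which was lowest in that line at 0.318 FPKM.

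The wider pathway was read through 9 lists of genes that work with these sensors, 109 genes in all, of which 77 were expressed. In YUMM1.7 against YUMM1.1, 21 of the 77 passed the call as higher and 5 as lower, with a median of 0.31, where 13.5% of all expressed symbols were higher and 9.91% lower. In YUMM2.1 against YUMM1.7, 5 were higher and 20 lower (median -0.31), where 11.7% and 19.5% of all symbols were. In YUMM2.1 against YUMM1.1, 8 were higher and 2 lower (median 0.05), where 6.21% and 7.64% were. The same shares stand behind the counts of each list, and 10 of the 77 had passed the filter through YUMM1.7 alone and 2 through YUMM2.1 alone. These balances depend on the scaling, which moves all symbols. With a common FPKM sum, YUMM1.7 against YUMM1.1 gave 11 higher and 24 lower, where 5.84% and 28.1% of all symbols were. YUMM2.1 against YUMM1.7 then gave 35 higher and 6 lower (54.7% and 4.48% of all symbols), and YUMM2.1 against YUMM1.1 gave 13 higher and 0 lower (17.8% and 2.82% of all symbols).

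Genes that act on double-stranded RNA were divided. Of 8 expressed members, 5 were higher and 1 lower in YUMM1.7 relative to YUMM1.1 (median 1.25), and 1 was higher and 5 lower in YUMM2.1 relative to YUMM1.7 (median -1.14). Between YUMM2.1 and YUMM1.1, 0 were higher and 1 lower (median 0.03). All 5 that were higher in YUMM1.7 (Oas1a, Oas1b, Oasl1, Oasl2 and Ifit1) had passed the filter through that line alone and so had to read highest there. Of the 3 that reached 1 FPKM in every line, Ifit2 differed by -1.33 in YUMM1.7 against YUMM1.1, Ifit3 by -0.92 and the RNA-activated kinase gene Eif2ak2 by 0.87. With members kept only at 5 FPKM or more, the median in YUMM1.7 against YUMM1.1 was -0.026. Oas1a, whose product is activated by double-stranded RNA, reached 14.2 FPKM in YUMM1.7, with YUMM2.1 listed at 0 and YUMM1.1 at 0.00826 FPKM. Oasl2 stood at 0.149 FPKM in YUMM2.1, 4.69 in YUMM1.7 and 0.0333 in YUMM1.1, and Ifit1, whose product binds RNA with a foreign 5' end, at 0.799 FPKM in YUMM2.1, 3.27 in YUMM1.7 and 0.2 in YUMM1.1. Ifit2 went the other way, at 8.55 FPKM in YUMM2.1, 2.43 in YUMM1.7 and 7.65 in YUMM1.1.

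Among genes of DNA sensing and of the clearance of stray nucleic acid, 7 of 13 expressed members were higher, 0 lower and 6 short of the call in YUMM1.7 relative to YUMM1.1 (median 1.04). The median was 0.42 with a common FPKM sum and 0.57 with members kept at 5 FPKM or more. Of the 7, Aim2 and Ifi204 had passed the filter through YUMM1.7 alone, and those short of the call included Samhd1 (-0.06) and Rnaseh2b (0.08). YUMM2.1 set against YUMM1.7 gave 0 higher and 7 lower (median -1.18, which became 0.16 with a common FPKM sum), and in YUMM2.1 against YUMM1.1, 2 were higher and 0 lower (median 0). Ifi204, an interferon-inducible gene linked to DNA sensing in the mouse, stood at 0.0104 FPKM in YUMM2.1, 2.54 in YUMM1.7 and 0.0133 in YUMM1.1. Rnaseh2a, a subunit of the enzyme that removes RNA from DNA, stood at 10.6 FPKM in YUMM2.1, 41.5 in YUMM1.7 and 17.4 in YUMM1.1, and the helicase gene Ddx41 at 6.93 FPKM in YUMM2.1, 24.7 in YUMM1.7 and 10.2 in YUMM1.1. Enpp1, whose product degrades cyclic GMP-AMP outside cells, had another order, with 3.47 FPKM in YUMM2.1, 1.47 in YUMM1.7 and 0.198 in YUMM1.1. Like Tmem173 and the cGAS gene, it was lowest in YUMM1.1.

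Regulators of the RIG-I pathway were mixed, with 4 of 13 expressed members higher and 1 lower in YUMM1.7 relative to YUMM1.1 and a median of -0.39. Trim25, a ubiquitin ligase of the RIG-I pathway, stood at 0.896 FPKM in YUMM2.1 and 6.01 in YUMM1.7 and was listed at 0 in YUMM1.1. It had passed the filter through YUMM1.7 alone and so had to read highest there. Zc3hav1, an antiviral protein that binds viral RNA, stood at 6.24 FPKM in YUMM2.1, 9.02 in YUMM1.7 and 2.44 in YUMM1.1. Tradd, a death domain adaptor, stood at 2.92 FPKM in YUMM2.1, 14.6 in YUMM1.7 and 7.16 in YUMM1.1, and the phosphatase gene Ppp1ca at 524 FPKM in YUMM2.1, 1920 in YUMM1.7 and 936 in YUMM1.1. YUMM2.1 against YUMM1.7 gave 1 higher and 4 lower (median -0.36), and YUMM2.1 against YUMM1.1 gave 1 higher and 1 lower (median -0.39).

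Of the kinases and transcription factors that the routes share, 1 of 14 expressed members was higher and 1 lower in YUMM1.7 relative to YUMM1.1 (median -0.03). Of all expressed symbols, 13.5% were higher and 9.91% lower in that pair. The higher one was Irf7, an interferon-induced factor that amplifies the response, at 0.208 FPKM in YUMM2.1, 12.0 in YUMM1.7 and 0.479 in YUMM1.1. It had passed the filter through YUMM1.7 alone and so had to read highest there. Ikbkg, the regulatory subunit of the NF-kappa-B kinase, was the lower one, at 12.1 FPKM in YUMM2.1, 6.43 in YUMM1.7 and 14.8 in YUMM1.1. Ikbkb (3.84 FPKM in YUMM2.1, 4.28 in YUMM1.7 and 7.99 in YUMM1.1) and the inhibitor gene Nfkbia (15.1 FPKM in YUMM2.1, 28.9 in YUMM1.7 and 16.7 in YUMM1.1) stayed within a difference of 1. Irf7 was the 1 lower gene of YUMM2.1 against YUMM1.7, and 0 were higher (median 0.06), and against YUMM1.1, 0 were past the call in either direction (median 0.15).

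Of adaptors and kinases next to the Toll-like receptors, 0 of 11 expressed members passed the call in YUMM1.7 against YUMM1.1 (median -0.23). The same held in YUMM2.1 against YUMM1.1 (median -0.04). Of all expressed symbols, 13.5% were higher and 9.91% lower in the first pair, and 6.21% and 7.64% in the second. In YUMM2.1 against YUMM1.7, 1 of the 11 was lower and 0 higher (median -0.04). That gene was Tab1, a partner of the kinase TAK1, listed under its older symbol Map3k7ip1 at 1.66 FPKM in YUMM2.1, 4.94 in YUMM1.7 and 2.73 in YUMM1.1. Tab2 (19.4 FPKM in YUMM2.1, 9.69 in YUMM1.7 and 15.9 in YUMM1.1), inhibitor gene Tollip (21.8 FPKM in YUMM2.1, 12.8 in YUMM1.7 and 22.5 in YUMM1.1) and Map3k7, the TAK1 gene itself (9.49 FPKM in YUMM2.1, 7.0 in YUMM1.7 and 12.2 in YUMM1.1), were lowest in YUMM1.7. Among co-receptors and chaperones, 1 of 5 expressed members was higher and 1 lower in YUMM1.7 relative to YUMM1.1 (median 0.01), against 0 higher and 1 lower in YUMM2.1 relative to YUMM1.7 (median 0.03) and 0 in either direction between YUMM2.1 and YUMM1.1 (median 0.01). The higher one was Cd14, which had passed the filter through YUMM1.7 alone and so had to read highest there. The lower one was Unc93b1, which carries TLR3 and other nucleic acid receptors to endosomes, at 1.1 FPKM in YUMM2.1, 0.120 in YUMM1.7 and 3.03 in YUMM1.1. Hsp90b1 (189 FPKM in YUMM2.1, 112 in YUMM1.7 and 153 in YUMM1.1) and Cnpy3 (17.6 FPKM in YUMM2.1, 22.2 in YUMM1.7 and 22.0 in YUMM1.1), both chaperone genes, were abundant in all 3 lines, while Lbp, Cd36 and Ly86 were below 0.1 FPKM in each.

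Genes that these sensors can induce did not share 1 order of lines. Of 7 expressed members, 3 were higher and 1 lower in YUMM1.7 relative to YUMM1.1 (median 0.73), 2 were higher and 1 lower in YUMM2.1 relative to YUMM1.7 (median -0.31), and 4 were higher and 0 lower in YUMM2.1 relative to YUMM1.1 (median 1.21). Ccl5, a chemokine that draws T cells, stood at 4.39 FPKM in YUMM2.1, 17.9 in YUMM1.7 and 0.754 in YUMM1.1, in the order of Tmem173. The adhesion gene Vcam1 had that order too, at 10.2 FPKM in YUMM2.1, 14.1 in YUMM1.7 and 1.89 in YUMM1.1. Ccl2, another chemokine gene, was lowest in YUMM1.7, at 251 FPKM in YUMM2.1, 74.7 in YUMM1.7 and 196 in YUMM1.1, and the cytokine gene Il6 read 21.4 FPKM in YUMM2.1, 0.672 in YUMM1.7 and 0.896 in YUMM1.1. Ifnb1, the gene of interferon beta itself, named after its values were seen, was at 0.180 FPKM in YUMM1.7 and listed at 0 in both other lines. Its level in YUMM1.7 corresponded to about 6.23 fragments, with an interval of 0.0636 to 0.377 FPKM. The upper limit was 0.0563 FPKM in YUMM2.1 and 0.0713 in YUMM1.1, so the intervals of YUMM1.7 and YUMM1.1 overlapped.

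**Figure D4:**
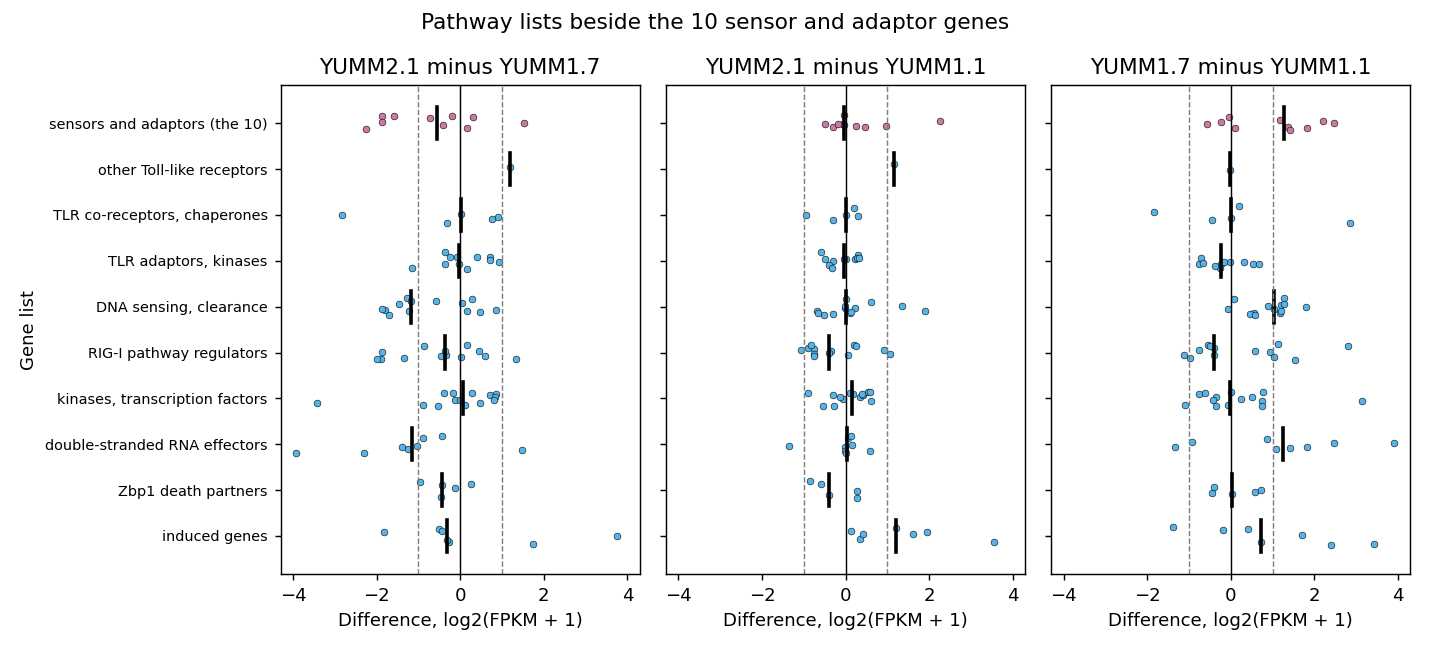
Difference in log2(FPKM + 1) of each expressed gene of the 9 pathway lists (blue points) and of the 10 sensor and adaptor genes (pink points) in the 3 pairs of lines, with list medians as black bars and dashed lines at a difference of 1. In YUMM1.7 minus YUMM1.1 the medians of the DNA sensing list (1.04) and the double-stranded RNA list (1.25) lie right of 1, while that of the Toll-like receptor adaptors is -0.23. The 5 higher genes of the double-stranded RNA list all passed the filter through YUMM1.7 alone, and its median is -0.026 with a filter at 5 FPKM. With a common FPKM sum the DNA sensing median is 0.42.

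For each of the 10 genes the pathway gene with the closest pattern was found as the smallest Euclidean distance of log2(FPKM + 1) over the 3 lines, among the 77 expressed pathway genes. Zbp1 lay closest to Ifi204 (distance 0.163), Tlr4 to Traf3 (0.278), Myd88 to Dnase2a (0.303) and Dhx58 to Oasl2 (0.340). Mavs lay closest to Ly96 (0.456), Tlr3 to Tab3 (0.476), Ddx58 to Tab1 (0.574), Ifih1 to Oasl1 (0.594) and Tlr2 to Tnfaip3 (0.606). Tmem173 had the most distant neighbor, Cxcl10 at 0.785. With 3 lines these distances describe likeness of level and order, and no more.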

How the data were processed

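Total RNA of 3 cell lines was sequenced, 1 library per line. TopHat2 2.0.9, Cufflinks and Cuffnorm made the values, per the submitters' processing notes. The values the authors deposited are FPKM per gene symbol. The sources used here name no genome build, annotation or scaling of the libraries, and read totals were not used here.

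The 10 genes, the lists and the call were chosen with earlier results of these data known. Values were used as deposited. Of 136 list genes, 129 were found by symbol and 7 under an older or alternative symbol through RefSeq gene names. The FPKM of 1 fragment was inferred from low FPKM values of single-transcript genes of at least 3000 nt (GENCODE M21). There 76.8% to 82.1% of values lay within 0.2 of a whole multiple. Fragments per gene assume the longest coding transcript. Named genes were all 10, up to 4 per list with the largest difference (lists of 8 or fewer in full), and the closest pattern. Other list genes in the text, the low leukocyte markers and the cGAS gene among them, were named after their values were seen. Of the lists, 1 gene is not reported here. Alternatives were pseudocounts of 0.1 and 5, no filter, a filter at 5 FPKM, 3 rescalings and a 4-fold call. The steps were tested on simulated data. Python 3.11.15, numpy 2.4.6, pandas 2.3.3, scipy 1.17.1 and matplotlib 3.10.9 were used.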

Additional observations from a re-analysis of the deposited data

How the results depend on the processing

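All 12 differences of 1 or more among the 10 genes kept their direction in 78 of 78 recalculations and stayed past the call in 65. A change of pseudocount or filter cannot turn a direction, so only the rescalings could have done so. Of the 18 smaller differences, 7 passed the call in at least 1 recalculation, in 9 recalculations in all. With the median ratio all counts of the 10 genes were as reported. That rescaling hardly moved the values, so it is little of a check. It shifted the median of all symbols by -0.0017 in YUMM2.1 against YUMM1.7, -0.0036 in YUMM2.1 against YUMM1.1 and -0.0019 in YUMM1.7 against YUMM1.1.

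For the 10 genes in YUMM1.7 against YUMM1.1, the count of higher genes (6) was 2 with the pseudocount at 5, 3 under the 5 FPKM filter, 3 with a common FPKM sum and 2 at the 4-fold call, and the count of lower genes (0) was 1 (Tlr2) with a pseudocount of 0.1. In YUMM2.1 against YUMM1.1, the count of higher genes (1) was 3 with a pseudocount of 0.1 and 2 with a common sum or upper quartile. In YUMM2.1 against YUMM1.7, the count of higher genes (1) was 0 at pseudocount 5, under the 5 FPKM filter or at the 4-fold call and 4 with a common sum. The count of lower genes (4) was 5 at pseudocount 0.1 (with Ifih1 at -1.38), 1 at pseudocount 5, 2 under the 5 FPKM filter, 2 with a common sum and 1 at the 4-fold call. Filters test fewer genes and larger pseudocounts shrink low genes by construction.

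For the 77 pathway genes, a pseudocount of 5 gave 9 higher and 1 lower in YUMM1.7 against YUMM1.1, 2 and 0 in YUMM2.1 against YUMM1.1, and 2 and 11 in YUMM2.1 against YUMM1.7. A common sum gave 11 and 24, 13 and 0, and 35 and 6 in the same order, so that the balance turned in YUMM1.7 against YUMM1.1 and in YUMM2.1 against YUMM1.7, as it did for all symbols (5.84% higher and 28.1% lower, and 54.7% higher and 4.48% lower). It moved the median of all symbols by -0.63, 0.49 and 1.13. The 5 FPKM filter gave 3 lower in YUMM1.7 against YUMM1.1, 5 higher in YUMM2.1 against YUMM1.1, and 3 higher and 13 lower in YUMM2.1 against YUMM1.7. A pseudocount of 0.1 gave 5 lower in YUMM2.1 against YUMM1.1 and 8 higher in YUMM2.1 against YUMM1.7, and a common upper quartile gave 1 lower in the first of these pairs and 10 higher in the second. Under a common sum the DNA sensing median in YUMM2.1 against YUMM1.7 turned to 0.16, and under a filter at 5 FPKM the double-stranded RNA median in YUMM1.7 against YUMM1.1 turned to -0.026. Beyond the construction named above, the cause was not tested.

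No paired analysis was possible because each line has 1 library and the labels give no replicate numbers. A count of 3 fragments on a transcript of 2 kb would read as 0.0172 FPKM in YUMM2.1, 0.0325 in YUMM1.7 and 0.0217 in YUMM1.1, and a gene listed at 0 is not read as absent.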
